A study of Mus musculus with 6 samples.

Results

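The 10 mouse genes followed here belong to cell cycle arrest and the p53 response and were measured in kidney RNA after lipopolysaccharide: Cdkn1a, Cdkn1b, Mdm2, Ccng1, Trp53inp1, Plk2, Btg2, Gadd45a, Gadd45b and Gadd45g. They were chosen by symbol, with earlier results of these data known, and all 10 were found among the 17680 gene symbols counted. Whole kidneys of wild-type C57BL/6 mice, 6 to 8 weeks old, were sequenced as bulk RNA. Of these mice 3 had received lipopolysaccharide (LPS) and 3 phosphate-buffered saline (PBS, the Control group), each given intraperitoneally 24 h earlier. LPS, an outer membrane component of Gram-negative bacteria, was used to produce a septic kidney injury, and the study asked which transcripts differ in the injured kidney. A kidney holds many cell types, and in bulk RNA fewer cells of a type and less RNA per cell cannot be told apart.

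The tumour suppressor p53 is a transcription factor that is held low by the ubiquitin ligase MDM2 and is stabilised by DNA damage and other stresses. Its targets include CDKN1A (p21), which binds and inhibits cyclin-dependent kinases and stops the cell cycle, and MDM2 itself, which closes a negative feedback loop. Several of these genes are also switched on without p53, by inflammatory and stress signals, and p21 is known to be induced in tubule cells after acute kidney injury.

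Libraries held between 29097558 and 33454344 counts. Levels are in CPM (counts per 1000000, with library totals scaled by TMM factors). Summed over each segment, tubule markers were abundant in all libraries. The 12 proximal tubule markers summed to 12991 to 14452 CPM in LPS kidneys and 43536 to 47387 CPM in Control kidneys. Kap made up most of that sum, at 10352 to 11944 CPM in LPS and 26889 to 32523 CPM in Control libraries. All 12 were lower in LPS kidneys, from 2.65-fold (Fbp1) to 44.9-fold (Slc7a13). Also lower were 4 of 5 loop of Henle, 4 of 4 distal convoluted tubule and 5 of 7 collecting duct markers, with 0 higher. The summed level of 10 neutrophil markers was 78.2 to 119 CPM in LPS kidneys and 2.96 to 3.88 CPM in Control kidneys, with all 8 tested members higher and the defining marker Ly6g at 4 counts over the LPS and 2 counts over the Control libraries. That of 10 monocyte and macrophage markers was 630.1 to 750.2 CPM in LPS kidneys and 127 to 194 CPM in Control kidneys, with 4 members higher and 4 lower. Cd14 and Plac8 made up most of that sum, and the other 8 markers summed to 126 to 146 CPM in LPS libraries and 106 to 171 CPM in Control libraries, which overlap. The part of these shifts in the changes of the 10 genes was not tested. The library of LPS replicate 2 stood apart: 7 seminal vesicle genes took 3.60% of its counts and at most 0.00451% in any other library. Over 14219 tested genes the LPS kidneys had 25.7% higher and 24.8% lower at a Benjamini-Hochberg adjusted p under 0.05 (edgeR quasi-likelihood test).

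Of the 10 genes, 6 rose in LPS kidneys, 2 fell and 2 did not pass the test, against 25.7% and 24.8% of all genes tested that rose and fell. The genes that rose were Cdkn1a, Btg2, Gadd45a, Gadd45b, Gadd45g and Mdm2, and those that fell were Cdkn1b and Trp53inp1. Ccng1 and Plk2 did not pass. The median log2 fold change was 0.65 over the 10 genes and 0.01 over all genes tested. All 10 genes passed the filter on low counts. The 3 LPS values and the 3 Control values did not overlap for 9 of the 10 genes, Plk2 being the exception, and for 60.2% of all genes tested. The groups did not overlap with LPS the higher in 6 of the 10 genes and in 30.5% of all genes tested. They did not overlap with LPS the lower in 3 of the 10 genes and in 29.8% of all genes tested. Of the 10 genes, 5 rose at least 2-fold, as did 8.24% of all genes tested. Because the genes were chosen with earlier results of these data known, these shares are no test of the set. The same 8 genes were called, in the same directions, under all 17 alternative settings, including the fit without LPS replicate 2.

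**Figure D1:**
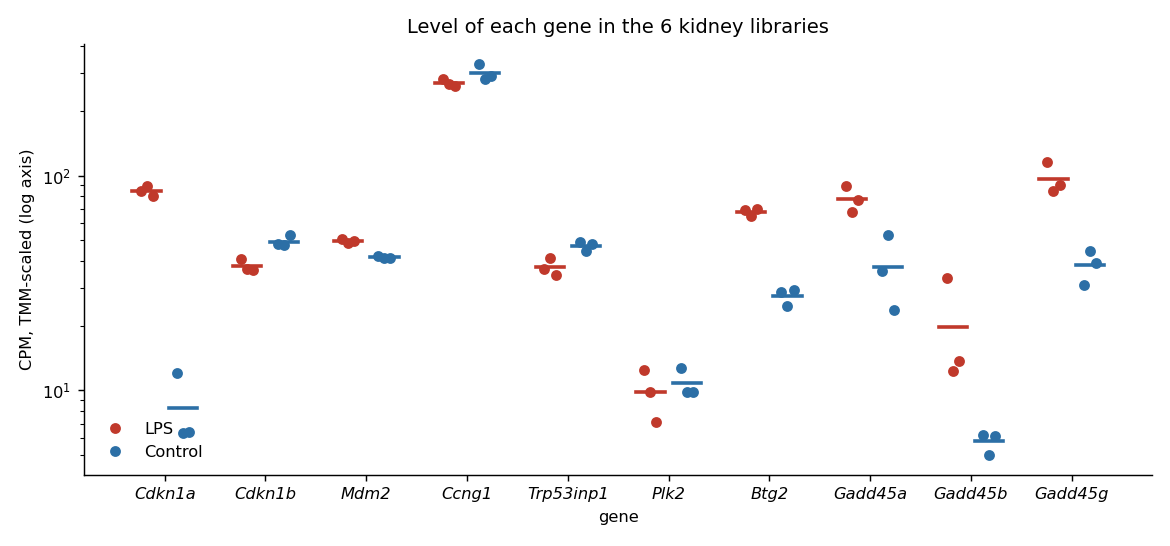
Level of each of the 10 genes, in CPM scaled between libraries with TMM factors (log axis), in the 3 LPS libraries (red) and the 3 Control libraries (blue). Points are libraries and horizontal bars are group means. Cdkn1a stands at 80.8 to 89.4 CPM in LPS and 6.35 to 12.1 CPM in Control libraries, while the points of Plk2 overlap.

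The inhibitors of cyclin-dependent kinases moved in opposite directions, with p21 strongly up and p27 modestly down. Cdkn1a, which encodes p21, had 84.6, 89.4 and 80.8 CPM in LPS replicates 1, 2 and 3, against 12.1, 6.35 and 6.41 CPM in Control replicates 1, 2 and 3. The LPS libraries lay close together and far above all Control libraries, among which replicate 1 was the highest. Means were 84.9 ± 4.33 CPM in LPS kidneys and 8.28 ± 3.28 CPM in Control kidneys (SD, n = 3 per group), a 10.3-fold difference with a log2 fold change of 3.36 ± 0.22 (SE) and an adjusted p of 4.23e-06 (edgeR). Of all genes tested, 98.5% had a smaller log2 fold change. Without Control replicate 1 the log2 fold change was 3.73, and without LPS replicate 2 it was 3.32.

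Cdkn1b encodes p27, a related inhibitor that holds resting cells out of the cycle. It had 40.8, 36.8 and 36.5 CPM in LPS libraries, against 47.8, 47.5 and 52.6 CPM in Control libraries. Every LPS value lay below every Control value. It fell with a log2 fold change of -0.37 ± 0.08 (SE), adjusted p = 0.00375 (edgeR), at 38.02 ± 2.39 CPM in LPS libraries and 49.3 ± 2.89 CPM in Control libraries.

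Of 6 other genes listed by name as inhibitors of cyclin-dependent kinases, not all of 1 family, 5 could be tested. Of these, 1 rose (20%) and 1 fell (20%), against 25.7% and 24.8% of all genes tested. Cdkn1c, which encodes p57, rose to 45.9 ± 6.55 CPM in LPS, against 35.8 ± 2.50 CPM in Control kidneys (log2 fold change 0.36, adjusted p = 0.0218, edgeR), and Cdkn2c, which encodes p18, fell with a log2 fold change of -0.60 (adjusted p = 0.0155, edgeR). Both calls were lost when certain single libraries were left out (edgeR). The adjusted p of Cdkn1c was 0.0681 when LPS replicate 3 was absent, 0.0766 for Control replicate 1 and 0.0556 for Control replicate 3. That of Cdkn2c was 0.0530 when LPS replicate 2 was absent, 0.0667 for Control replicate 2 and 0.0579 for Control replicate 3. Cdkn2b, which encodes p15, had 3.29 ± 0.804 CPM after LPS and 4.68 ± 1.15 CPM after PBS and did not pass (adjusted p = 0.149, edgeR). Cdkn2a was below the filter.

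Promoter windows of 300 bases, from 250 before to 50 after a transcription start, were available for 9 of the 10 genes from RefSeq (mouse assembly GRCm38.p6), with a second start for Cdkn1a. They were searched on both strands for the p53 consensus decamer and, a search added after the sequences were seen, for a pair of adjacent decamers with at most 1 mismatch in 20 bases. The paired site was present in 0.0883% of 32851 windows of the assembly (29 windows) and in windows of Cdkn1a and Ccng1. Both are shown because they carry the same kind of match and their transcripts behaved differently, Cdkn1a with a log2 fold change of 3.36 and Ccng1 with one of -0.16. Capitals mark the matches: in Cdkn1a a lone decamer followed by the paired site, which begins 51 bases before the upstream start, and in Ccng1 the paired site, which begins 195 bases before the start. Cdkn1a is at chr17:29090729-29091028, plus strand, and Ccng1 is at chr11:40755237-40755536, minus strand; both read 5′ to 3′ along the gene.
Cdkn1a: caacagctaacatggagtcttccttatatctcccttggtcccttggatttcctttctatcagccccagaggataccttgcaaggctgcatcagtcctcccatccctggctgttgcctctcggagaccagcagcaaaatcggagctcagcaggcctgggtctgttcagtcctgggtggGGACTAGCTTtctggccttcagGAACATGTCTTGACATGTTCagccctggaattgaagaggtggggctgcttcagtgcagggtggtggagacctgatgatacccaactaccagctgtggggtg
Ccng1: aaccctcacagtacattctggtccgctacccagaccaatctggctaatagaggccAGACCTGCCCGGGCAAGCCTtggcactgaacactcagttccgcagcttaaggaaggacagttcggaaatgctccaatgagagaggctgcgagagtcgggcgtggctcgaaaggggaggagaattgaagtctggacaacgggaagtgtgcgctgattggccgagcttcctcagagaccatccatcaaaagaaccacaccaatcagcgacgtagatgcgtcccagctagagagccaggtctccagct
The single decamer was found in 8.36% of all windows and also in those of Mdm2 and Gadd45a. The window at the second, downstream start of Cdkn1a held none of the motifs searched. A match describes letters only, and binding was not measured.

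Mdm2, whose protein marks p53 for degradation, had 50.5, 48.7 and 49.5 CPM in LPS libraries, against 42.4, 41.4 and 41.3 CPM in Control libraries. Values were tight within each group and did not overlap. Mdm2 rose 1.19-fold, at 49.5 ± 0.888 CPM in LPS kidneys and 41.7 ± 0.574 CPM in Control kidneys, with a log2 fold change of 0.25 ± 0.06 (SE) and an adjusted p of 0.0103 (edgeR).

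Ccng1 encodes cyclin G1, which recruits a phosphatase to MDM2. It had 281, 269 and 260.4 CPM in LPS libraries, against 333, 282 and 291 CPM in Control libraries, the highest values in CPM of the 10 genes in both groups. LPS replicate 1 lay just under the lowest Control library, so the groups barely separated. The log2 fold change was -0.16 ± 0.09 (SE) with a 95% interval of -0.36 to 0.03 and an adjusted p of 0.144 (edgeR), so a rise of Cdkn1a's size lies outside the interval.

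Trp53inp1, whose product promotes p53-dependent arrest and cell death, had 36.6, 41.3 and 34.4 CPM in LPS libraries, against 48.9, 44.6 and 48.0 CPM in Control libraries. All LPS values were below all Control values. It fell with a log2 fold change of -0.33 ± 0.09 (SE), adjusted p = 0.0107 (edgeR).

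Plk2, a polo-like kinase gene that p53 and other stress signals can induce, had 12.4, 9.84 and 7.09 CPM in LPS libraries, against 12.7, 9.87 and 9.77 CPM in Control libraries. The groups overlapped, and the LPS libraries were spread more widely. The log2 fold change was -0.14 ± 0.21 (SE) with a 95% interval of -0.61 to 0.33 and an adjusted p of 0.607 (edgeR). It was -0.34 without LPS replicate 1 and 0.05 without LPS replicate 3.

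**Figure D2:**
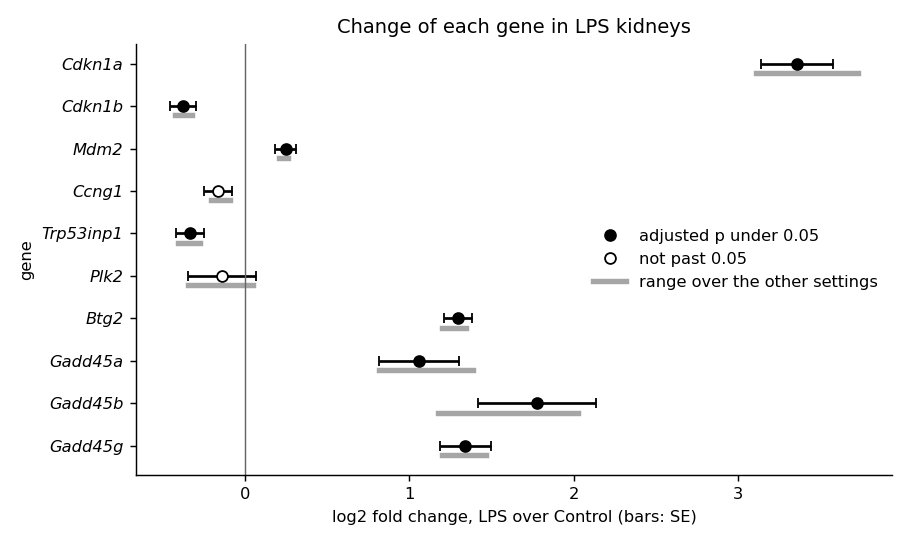
Log2 fold change of each of the 10 genes, LPS over Control, with the standard error as bars. Filled points have an adjusted p under 0.05 and open points do not. Grey bars give the range over the 17 alternative settings. Cdkn1a lies farthest right at 3.36, and the grey bar of Gadd45b reaches furthest left of its point, to 1.17.

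Btg2, an antiproliferative gene whose protein binds the deadenylase complex that shortens mRNA tails, rose. It had 69.0, 64.7 and 69.9 CPM in LPS libraries, against 28.8, 24.6 and 29.4 CPM in Control libraries. The spread within each group was small beside the distance between them. Means were 67.9 ± 2.81 CPM in LPS kidneys and 27.6 ± 2.64 CPM in Control kidneys (SD, n = 3 per group), a 2.46-fold difference with a log2 fold change of 1.30 ± 0.09 (SE) and an adjusted p of 4.58e-06 (edgeR).

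The promoter windows of Btg2 and Plk2 both held the cyclic AMP response element TGACGTCA, found in 1.79% of all windows, and are shown because only the first of these genes passed the test. Whether their changes differ was not tested. Capitals mark the element, which begins 166 bases before the start in Btg2 and 62 bases before it in Plk2. Btg2 is at chr1:134079106-134079405, minus strand, and Plk2 is at chr13:110394794-110395093, plus strand, in GRCm38.p6.
Btg2: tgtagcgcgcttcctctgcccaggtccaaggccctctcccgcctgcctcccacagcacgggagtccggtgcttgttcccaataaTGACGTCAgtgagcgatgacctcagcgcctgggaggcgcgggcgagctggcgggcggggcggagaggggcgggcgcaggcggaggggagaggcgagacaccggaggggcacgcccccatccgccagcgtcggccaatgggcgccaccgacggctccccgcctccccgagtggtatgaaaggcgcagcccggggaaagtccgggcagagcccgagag
Plk2: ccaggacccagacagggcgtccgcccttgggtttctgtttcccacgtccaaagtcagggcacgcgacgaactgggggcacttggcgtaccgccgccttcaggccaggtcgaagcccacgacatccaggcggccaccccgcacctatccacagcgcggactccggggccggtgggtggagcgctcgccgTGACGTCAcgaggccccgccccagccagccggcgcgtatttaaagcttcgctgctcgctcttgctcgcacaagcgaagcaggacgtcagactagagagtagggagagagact
Neither the NF-kB site (8.46% of all windows), the AP-1 site TGANTCA (7.81%), the STAT site TTCNNNGAA (8.30%) nor the CArG box (1.63%) occurred in any of the 10 windows searched. A TATA box (TATAAA, 13.6% of all windows) stood 46 bases before the start of Gadd45b and 27 bases before that of Gadd45g. These absences say only that the letters are not in these windows.

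The GADD45 genes encode small stress proteins that bind PCNA and p21 and activate the kinase MAP3K4 upstream of p38 and JNK. All 3 rose. Gadd45a, the member most closely tied to p53, had 89.8, 67.4 and 76.8 CPM in LPS libraries, against 35.8, 52.8 and 23.6 CPM in Control libraries. The groups did not overlap, although the Control libraries differed among themselves by 2.24 times from lowest to highest. The log2 fold change was 1.06 ± 0.24 (SE), adjusted p = 0.00592 (edgeR), and it lay between 0.82 without Control replicate 3 and 1.39 without Control replicate 2.

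Gadd45b, a gene that NF-kB and TGF-beta signalling can induce, had 33.3, 12.3 and 13.7 CPM in LPS libraries, against 6.22, 4.98 and 6.12 CPM in Control libraries. LPS replicate 1 was 2.71 times as high as LPS replicate 2, and all LPS values lay above all Control values. The log2 fold change was 1.78 ± 0.36 (SE), adjusted p = 0.00296 (edgeR). Without LPS replicate 1 it was 1.17 with an adjusted p of 0.000523 (edgeR), so the size of the rise depends on that library.

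Gadd45g had 115, 84.4 and 90.6 CPM in LPS libraries, against 31.0, 44.6 and 39.0 CPM in Control libraries. LPS replicate 1 was again the highest, and the lowest LPS value was well above the highest Control value. Means were 96.8 ± 16.4 CPM in LPS kidneys and 38.2 ± 6.86 CPM in Control kidneys (SD, n = 3 per group), with a log2 fold change of 1.34 ± 0.15 (SE) and an adjusted p of 0.000111 (edgeR).

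Within each group, 1 library was the highest for most of the 10 genes. LPS replicate 1 had the highest LPS value for 7 of the 10 genes, all 3 GADD45 genes and Plk2 among them. Control replicate 1 had the highest Control value for 6 genes. How often each library was the highest over all genes tested was not counted. Relative spread differed between genes: the coefficient of variation among LPS libraries was 59.5% for Gadd45b and 1.79% for Mdm2, and among Control libraries it was 39.7% for Cdkn1a, 39.1% for Gadd45a and 1.38% for Mdm2.

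Levels were compared between genes in FPKM, which divides counts by gene length and library total. In LPS kidneys the order from the top was Gadd45g (89.3 ± 16.1 FPKM), Ccng1 (77.1 ± 3.88), Gadd45a (63.5 ± 9.78), Cdkn1a (41.6 ± 2.29), Btg2 (21.9 ± 0.947), Cdkn1b (15.8 ± 1.17), Gadd45b (15.6 ± 9.48), Trp53inp1 (6.86 ± 0.665), Mdm2 (6.66 ± 0.183) and Plk2 (3.48 ± 0.987 FPKM). In that order the ranges of Gadd45g and Ccng1, Ccng1 and Gadd45a, Cdkn1b and Gadd45b, and Trp53inp1 and Mdm2 overlapped. In Control kidneys Ccng1 was highest at 87.0 ± 9.70 FPKM and stood clear of Gadd45g (35.3 ± 5.69) and Gadd45a (30.6 ± 11.7), followed by Cdkn1b (20.6 ± 1.12), Btg2 (8.99 ± 0.963), Trp53inp1 (8.71 ± 0.566), Mdm2 (5.65 ± 0.198), Gadd45b (4.58 ± 0.610), Cdkn1a (4.10 ± 1.73) and Plk2 (3.87 ± 0.687 FPKM). There the ranges of Gadd45g and Gadd45a, Gadd45a and Cdkn1b, Btg2 and Trp53inp1, Gadd45b and Cdkn1a, and Cdkn1a and Plk2 overlapped. Cdkn1a was thus the fourth in LPS and the ninth in Control kidneys.

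**Figure D3:**
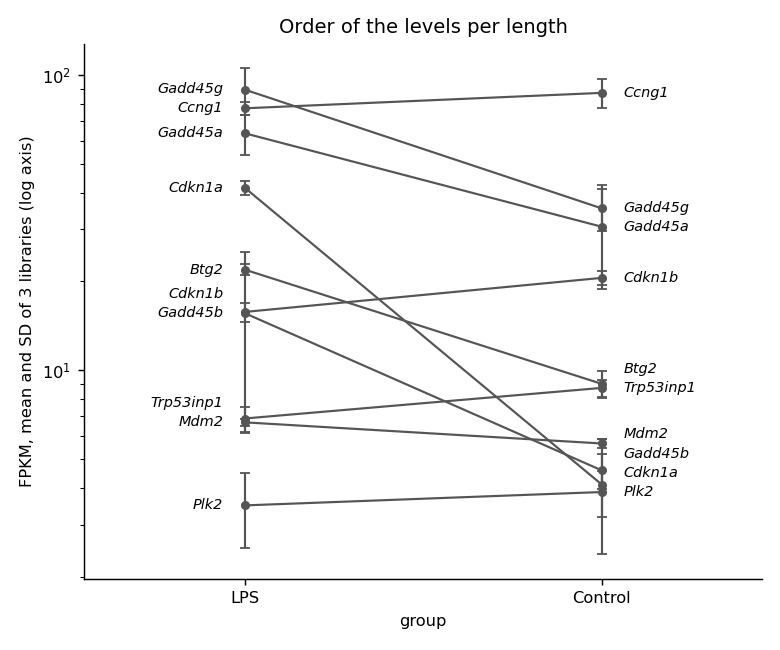
Mean level per length of the 10 genes in FPKM (log axis) in LPS kidneys (left) and Control kidneys (right), with SD bars over 3 libraries and a line for each gene. The line of Cdkn1a crosses those of Gadd45b, Mdm2, Trp53inp1, Btg2 and Cdkn1b, standing at 41.6 FPKM in LPS and 4.10 FPKM in Control kidneys.

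Ratios of FPKM within a library need no scaling between libraries, and 6 pairs of genes were compared. The p21 to p27 ratio (Cdkn1a over Cdkn1b) was 2.45, 2.87 and 2.62 in LPS libraries, against 0.298, 0.158 and 0.144 in Control libraries. Cdkn1a was thus above Cdkn1b in all LPS libraries and below it in all Control libraries. The mean log2 ratio was 1.40 ± 0.11 in LPS and -2.40 ± 0.57 in Control kidneys (SD, n = 3 per group), with an exact two-sided permutation p of 0.1, the smallest that 3 against 3 libraries allow, and 0.3 after Benjamini-Hochberg adjustment over the 6 pairs.

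The ratio of Mdm2 to Cdkn1a was 0.164, 0.150 and 0.168 in LPS libraries, against 0.964, 1.79 and 1.77 in Control libraries. It was lower in every LPS library, with a difference in mean log2 ratio of -3.18 and the same exact permutation p of 0.1 (0.3 adjusted). Among the GADD45 genes the ratios overlapped between the groups. Gadd45b over Gadd45a was 0.359, 0.176 and 0.172 in LPS libraries, against 0.168, 0.0913 and 0.250 in Control libraries (exact permutation p = 0.4, adjusted 0.48), and Gadd45g over Gadd45a and Gadd45b over Gadd45g had exact permutation p-values of 0.4 and 0.7 (adjusted 0.48 and 0.7). With 3 libraries a group this test cannot give a p under 0.1, so these values neither show a difference nor show that there is none. The ratio of Trp53inp1 to Ccng1 differed by -0.18 on the log2 scale, with overlapping values (exact permutation p = 0.2, adjusted 0.4).

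**Figure D4:**
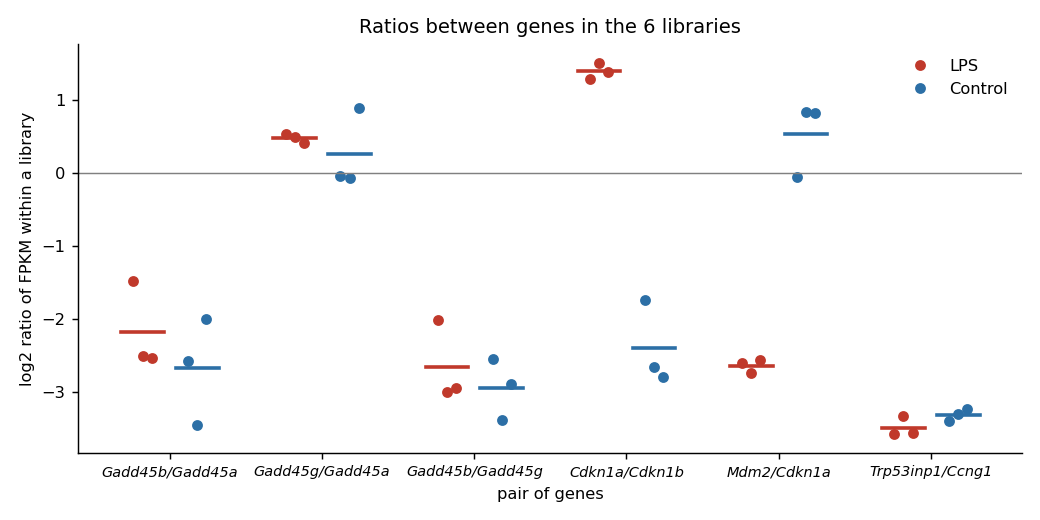
Log2 ratio of FPKM between 2 genes within each library, for 6 pairs, in LPS (red) and Control (blue) libraries. Points are libraries and bars are group means. The groups separate for Cdkn1a over Cdkn1b (means 1.40 in LPS and -2.40 in Control kidneys) and for Mdm2 over Cdkn1a, and overlap for the other 4 pairs.

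The transcript of p53 itself rose in LPS kidneys. Trp53 had 50.2, 53.5 and 56.2 CPM in LPS libraries, against 27.4, 30.7 and 27.3 CPM in Control libraries. The groups were well apart, with a log2 fold change of 0.90 ± 0.08 (SE) and an adjusted p of 2.51e-05 (edgeR). Of 15 listed p53 genes and regulators, all tested, Trp53 was the 1 gene that rose and 0 fell. Without LPS replicate 1, 2 fell. By p, the next were the deacetylase gene Sirt1 (log2 fold change -0.31, adjusted p = 0.068) and the ubiquitin ligase gene Cop1 (-0.15, adjusted p = 0.125), neither of which passed (edgeR). The list had a median log2 fold change of -0.04.

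Of 25 other p53 target genes, 10 rose (40%, against 25.7% of all genes tested), 2 fell (8%, against 24.8%) and 13 did not pass, with a median log2 fold change of 0.25. Fewer rose under some alternative settings: 8 without Control replicate 2, without Control replicate 3 or by limma on log2(FPKM + 1). In that limma setting 3 fell. Gdf15, a stress-induced cytokine gene, had 51.5, 44.7 and 56.8 CPM in LPS libraries, against 5.85, 6.84 and 4.93 CPM in Control libraries, and its log2 fold change of 3.12 ± 0.14 (SE; adjusted p = 4.93e-07, edgeR) was close to that of Cdkn1a. Aen, an apoptosis-enhancing nuclease gene, rose with a log2 fold change of 1.11 ± 0.11 (SE), adjusted p = 4.83e-05 (edgeR). Sesn1, which encodes the stress protein sestrin 1, fell to 10.6 ± 0.406 CPM in LPS, against 21.4 ± 1.58 CPM in Control kidneys, a log2 fold change of -1.01 ± 0.11 (SE), adjusted p = 6.28e-05 (edgeR). The other 8 genes of the list that rose, named after their values were seen, had log2 fold changes of 2.15 (Sfn), 1.39 (Eda2r), 0.90 (Tnfrsf10b), 0.88 (Fas), 0.86 (Apaf1), 0.76 (Zmat3), 0.72 (Bax) and 0.56 (Pmaip1), and the other gene that fell was Rrm2b (-0.66). The 13 genes that did not pass had log2 fold changes between -0.19 (Fdxr) and 0.30 (Bbc3). Rrm2b, Fdxr and Bbc3 were also named after their values were seen.

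Of 12 listed paralogues 11 were tested (Btg4 was not analysed here), and 3 rose (27.3%) and 4 fell (36.4%), against 25.7% and 24.8% of all genes tested, with a median log2 fold change of -0.13. Btg1, the paralogue of Btg2, rose to 167 ± 9.62 CPM in LPS, against 87.3 ± 3.38 CPM in Control kidneys (log2 fold change 0.94, adjusted p = 2.00e-05, edgeR), while Tob1, a more distant relative, fell to 71.0 ± 4.93 CPM in LPS, against 143 ± 5.89 CPM in Control kidneys (log2 fold change -1.01, adjusted p = 1.44e-05, edgeR). Plk5 had 9 counts in LPS and 120 counts in Control libraries (log2 fold change -3.76 ± 0.51, adjusted p = 0.000300, edgeR). The log2 fold change of Plk5 was -4.35 without LPS replicate 3, and -2.04 and -0.48 by limma on log2(FPKM + 0.1) and log2(FPKM + 1), which shrink the change of such a low gene. Plk3, named after its values were seen, rose with a log2 fold change of 1.75 where Plk2 did not pass.

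Of 12 G1 cyclins, kinases and pocket protein genes, 2 rose (16.7%) and 4 fell (33.3%), against 25.7% and 24.8% of all genes tested. The median log2 fold change of this list was -0.15. The D-type cyclins Ccnd1, at 131 ± 23.6 CPM after LPS and 262 ± 40.6 CPM after PBS, and Ccnd3 (log2 fold change -0.50, adjusted p = 0.000262, edgeR) fell, and their partner kinase Cdk4 rose (0.46, adjusted p = 0.000567, edgeR). Ccnd2, also a D-type cyclin, fell (-0.80, adjusted p = 0.00995, edgeR), and the kinase gene Cdk6 rose (0.64, adjusted p = 0.00296, edgeR). Ccnd2 and Cdk6 were named after their values were seen. Of 20 genes of S, G2 and M phase, 2 rose (10%, against 25.7% of all genes tested) and 1 fell (5%, against 24.8%), and 17 did not pass. Mcm6, a subunit of the replicative helicase, fell (log2 fold change -0.63, adjusted p = 0.000368, edgeR), and its partner Mcm2 (0.46, adjusted p = 0.00635) and the DNA clamp Pcna (0.38, adjusted p = 0.00707) rose (edgeR). The proliferation marker Mki67, named after its values were seen, stood at 2.98 ± 0.225 CPM after LPS and 3.59 ± 1.09 CPM after PBS and did not pass (adjusted p = 0.424, edgeR). Without LPS replicate 1, 3 genes of this list fell.

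The last lists covered the neighbours of p27 and of the GADD45 proteins. Of 7 genes of p27 turnover and its FOXO activators, 2 rose (28.6%) and 1 fell (14.3%), against 25.7% and 24.8% of all genes tested. Cks1b, a cofactor for p27 degradation, rose to 6.01 ± 0.465 CPM in LPS, against 2.72 ± 0.0466 CPM in Control kidneys (log2 fold change 1.14, adjusted p = 0.000805, edgeR). Akt1 rose (0.53, adjusted p = 0.00105, edgeR) and Foxo4 fell (-0.21, adjusted p = 0.0470, edgeR). The call of Foxo4 was lost under 13 of the 17 alternatives, with adjusted p-values from 0.0192 to 0.188 over all of them. Of 8 kinases downstream of GADD45, 1 rose (12.5%) and 2 fell (25%), against the same 25.7% and 24.8% of all genes tested. The p38 activator Map2k3 rose (log2 fold change 0.52, adjusted p = 0.000656, edgeR). The p38 activator Map2k6 fell (-0.74, adjusted p = 0.00277, edgeR), and Mapk14, which encodes p38 alpha, fell (-0.26, adjusted p = 0.0259, edgeR). The adjusted p of Mapk14 (edgeR) missed the threshold when a single library was left out: 0.0802 for LPS replicate 2, 0.0542 for LPS replicate 3, 0.0769 for Control replicate 2 and 0.0953 for Control replicate 3. Median log2 fold changes of these lists were 0.06 and -0.06.

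**Figure D5:**
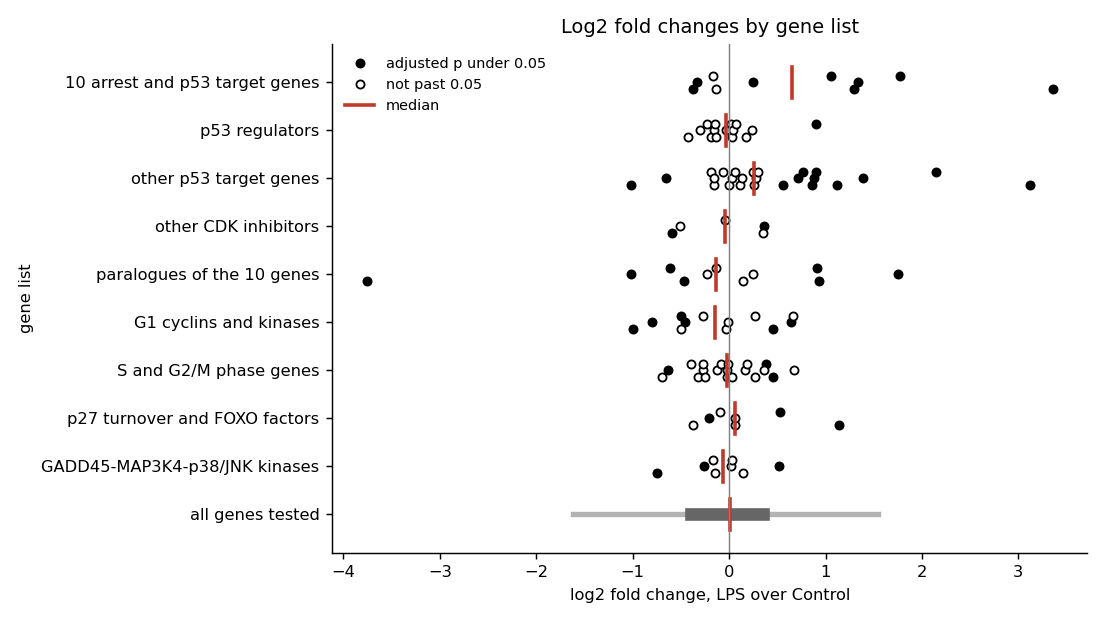
Log2 fold changes, LPS over Control, of the 10 genes and of 8 related gene lists. Each point is a gene, filled where the adjusted p is under 0.05, and red lines are medians. The bottom row gives the 25th to 75th (dark) and 5th to 95th (light) percentiles of all genes tested, with a median of 0.01. The 10 genes have a median of 0.65.

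Likeness to the pattern of Cdkn1a over the 6 libraries was taken as Euclidean distance of mean-centred log2 CPM. Tested genes outside the 10 were ranked, leaving out symbols made of Gm and digits or ending in Rik. The most alike were Samsn1 (0.298), Muc4 (0.326) and Dusp2 (0.345). Their levels were 4.98 ± 0.587, 14.6 ± 0.845 and 4.58 ± 0.296 CPM in LPS kidneys, against 0.497 ± 0.265, 1.44 ± 0.532 and 0.463 ± 0.236 CPM in Control kidneys. In GENCODE M21 an antisense gene overlaps Cdkn1a and another overlaps Gadd45a. The strand setting of the counting is not given in the sources used here and neither antisense gene has a row in the counts, so reads of these pairs cannot be told apart.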

How the data were processed

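For each library the authors deposited 2 values per gene, a raw count and an FPKM. RNA was extracted with TRIzol, and a VAHTS Universal V6 kit was used for the libraries, according to the labels' protocols. The submitters' processing notes list HISAT2, HTSeq, SAMtools, DESeq2 and R 3.2.0 without saying what each did. Genome build, annotation and strand setting: not given in the sources used here. The deposited FPKM equals the deposited count per kilobase of a whole-number gene length and per 1000000 counts of the library in 97602 of 97605 values above 0 (relative tolerance 1e-06).

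Groups came from the sample titles. The counts went into edgeR 4.0.16 (R 4.3.3) with filterByExpr (minimum count 10, minimum total 15), TMM factors and the two-sided quasi-likelihood test, which kept 14219 genes and removed 3461. Adjusted p-values are Benjamini-Hochberg values over all genes kept, with a threshold of 0.05. The SE was taken from the log2 fold change and the F statistic (their ratio, after a square root of F), and 95% intervals use the test's degrees of freedom. CPM are TMM-scaled. In counts simulated for LPS against Control (13931 genes), the test recovered 41.5%, 75.8% and 95.3% of genes changed 1.5-fold, 2-fold and 4-fold, and 13 of 151 calls were unchanged genes. In that simulation 65, 66 and 64 genes were changed by these folds, while 7185 genes were called in the data. With so different a share of changed genes, these rates need not hold for the data.

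P-values set the difference between the groups against the spread between these libraries. The 10 genes, the gene lists and the tests were chosen with earlier results of these data known. Besides the 10 genes and Trp53, the 3 genes of each list with the smallest p are named, and others are marked as named after their values were seen. Alternatives used limma 3.58.1 and DESeq2 1.42.0.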

Additional observations from a re-analysis of the deposited data

How the results depend on the processing

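Among the 10 genes the calls stayed at 6 higher and 2 lower, the same genes, under all 17 alternatives. These changed the scaling (RLE factors, or none beyond library size), the filter (none, or a floor of 1 on the mean CPM or FPKM), the tool (DESeq2, limma-voom, or limma on log2 FPKM with a pseudocount of 1 or 0.1), took out 177 genes high in the library with seminal vesicle RNA, added the replicate block, or left out 1 library at a time. Over all genes tested the counts lay between 3077 and 3724 higher and between 2942 and 3572 lower. Same-numbered libraries did not deviate together (correlations of 0.048, -0.053 and -0.0020), and not every library correlated best with its own number. These values give no sign that same-numbered mice were paired, but with 3 libraries a group they cannot exclude it. With the replicate block 3414 genes were higher and 3331 lower, and the 10 genes kept 6 and 2 calls. The difference in mean log2 ratio of Gadd45b to Gadd45g, 0.28 in all libraries, lay between -0.037 and 0.48 when 1 library was left out, and was -0.037 without LPS replicate 1; the cause was not tested. The other 5 ratios kept their sign.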
